A study of Mus musculus with 9 samples.

Results

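Genes that encode the folding and entry machinery of the endoplasmic reticulum (ER) were described in whole colons of mice with a deletion in Ptch1 and of wildtype mice. The set holds 54 genes in 5 roles, which are stress sensors and stress transcription factors, chaperones and folding enzymes, ER degradation, targeting and translocation, and N-glycosylation. Its members were found by name, as the rows of the deposited table whose platform annotation gives exactly 1 gene symbol that is on the list. This gave 131 rows of 53 genes, out of 34945 such rows of 18193 genes. Sec61g, the small gamma subunit of the translocon, had no row of its own.

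The 9 samples were whole colons of mixed C57BL/6 and Balb/c mice, each hybridised to 1 Affymetrix mouse array. All mice carried Rosa26-CreERT2, a Cre recombinase expressed body-wide and active in the presence of tamoxifen, and all received 1 mg tamoxifen by intraperitoneal injection on 5 consecutive days. The 5 mutants were Ptch1fl/fl and lost the floxed part of the Hedgehog receptor Patched1, while the 4 wildtypes were Ptch1+/+, and colons of both were taken on day 12. The array numbers in the titles were 1, 3, 4, 6 and 7 in mutants and 5, 8, 9 and 10 in wildtypes. The labels do not say whether each colon came from its own mouse, so the p-values measure only the spread between these samples. In a whole organ, fewer cells of a type and less RNA per cell cannot be told apart.

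Secreted and membrane proteins enter the ER through the Sec61 channel, are glycosylated as they enter, fold with the help of chaperones and disulfide isomerases, and are sent back to the cytosol for degradation if they fail to fold. When unfolded proteins accumulate, the sensors Ire1 (Ern1, and Ern2 in gut epithelium), Perk (Eif2ak3) and Atf6 raise the transcription of chaperone genes, the unfolded protein response. Colon epithelium relies on this machinery because its goblet cells secrete large amounts of mucin, and plasma cells of the mucosa rely on it to secrete antibody.

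Strength of difference, the value used throughout, is the absolute moderated t of a row in limma, with n = 5 mutant and 4 wildtype arrays, and its percentile among all rows with 1 symbol, so that the median row of the array lies at 50. Neither direction nor fold change nor level is given for a named gene, because rows that carry the same name often differed in sign. Among the members, 7 genes had more than 1 row past the threshold, which gave 20 pairs of such rows, 10 of them from Rpn1. Of the 20 pairs 9 had the same sign, and 4 of the 7 genes held rows of both signs. Over all genes, 172 of 355 such pairs had the same sign (48.5%). Calls are therefore calls of named rows, and their assignment to any one gene is uncertain. The same limit prevented a check of the colon by the levels of its markers.

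Of the rows named by the deleted gene Ptch1, the 3 lay at percentiles 30.6, 91.1 and 92.3 (limma adjusted p from 0.0761 to 0.834). No source used here places them within the deleted part, so they check nothing about it. The 4 rows of Hhip, a target gene of Hedgehog signalling, lay at 99.5 to 99.6, and the row of Gli1, another target, lay at 86.2 and did not pass (limma adjusted p = 0.153). Correlations between the 9 arrays on the log2 scale ranged from 0.986 to 0.996.

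Rows of the ER genes differed between mutant and wildtype colons more often than the rows of the array as a whole. Of the 131 member rows, 31 passed a limma adjusted p of 0.05 (23.7%), where 5.19% of all rows with 1 symbol did. That number rested on single arrays. Without wildtype 4, 5 member rows passed (3.82%, with 1.02% of all rows), without wildtype 3, 9 did (6.87% and 0.987%), and without mutant 3, 13 did (9.92% and 1.76%). Without mutant 2 it was 15 (11.5% and 1.77%), without mutant 1 it was 19 (14.5% and 3.52%) and without wildtype 2 also 19 (14.5% and 2.87%). The number changed less without mutant 5 (24, 18.3% and 3.89%), wildtype 1 (26, 19.8% and 6.51%) or mutant 4 (29, 22.1% and 5.28%). With the array number as a covariate it was 0, where 0.0773% of all rows passed. At an unadjusted p under 0.05 there were 66 member rows (50.4%), where the share over all rows was 21.1%. The median percentile of the member rows was 79.5, and 48 of the 131 lay above percentile 90. In 42 member rows (32.1%) no mutant array overlapped a wildtype array, as in 9.78% of all rows. Counted by gene, 19 of 53 members had at least 1 row past the threshold (35.8%), where 8.43% of all genes did. Member genes had more rows each, 2.47 on average where all genes had 1.92. With 1 row per gene, the brightest, 17 of 53 members passed, where 8.10% of genes did. The members were chosen with earlier results of these data known, and the part of that choice in these shares was not tested.

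The member rows also differed by more on the log2 scale. Their median absolute log2 difference was 0.161, where the median of all rows was 0.064, while the residual SD was 0.105 and 0.094. Rows past the threshold were brighter than others across the array, with a median log2 level of 8.34 over all rows past and 6.07 over the rest. The 31 member rows past had a median of 8.49 and the 100 others one of 6.75, where these levels belong to the rows and not to the genes they are named for.

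The calls were unevenly spread over the roles. Chaperones and folding enzymes (18 of 31 rows) and glycosylation genes (9 of 16 rows) held 27 of the 31 calls, and targeting and translocation the other 4 (of 38 rows). Stress sensors (26 rows) and ER degradation (20 rows) had none past. Rows of chaperones had a median log2 level of 7.93 and rows of glycosylation genes one of 7.63. It was 7.11 for ER degradation, 6.48 for targeting and translocation, 6.14 for stress sensors and 6.20 for all rows. The roles with the highest shares of calls were thus also the brightest, and the part of level in the calls was not tested. Without 1 array at a time the calls ranged from 4 to 18 for chaperones, 0 to 7 for glycosylation and 0 to 4 for targeting and translocation. This difference between roles is a description and was not tested, and the lists were chosen with earlier results of these data known.

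**Figure D1:**
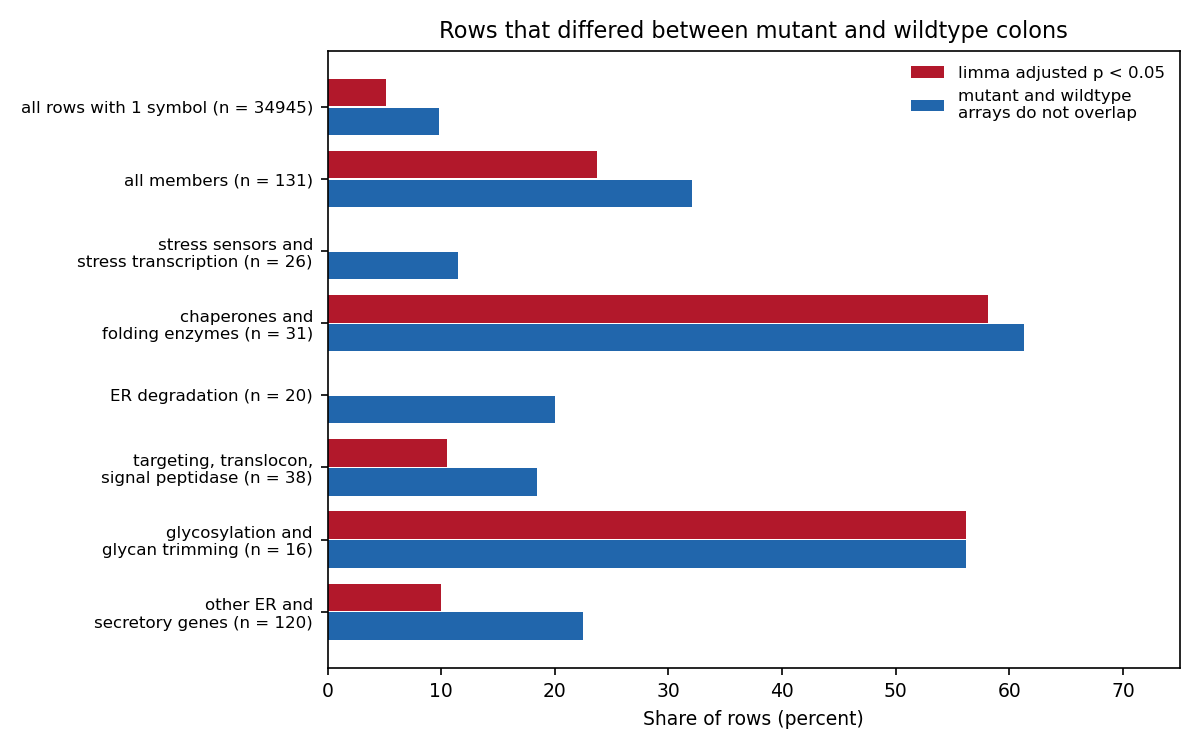
Horizontal bars give the share of rows, in percent, past a limma adjusted p of 0.05 (red) and with no overlap between the 5 mutant and 4 wildtype arrays (blue), for all rows, the members, their 5 roles and other ER and secretory genes, with the number of rows in brackets. Chaperones reach 58.1% and glycosylation genes 56.2% past the threshold, where all rows reach 5.19%.

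Chaperones and folding enzymes gave the strongest differences of the set. Of 15 genes, 11 had a row past the threshold, and the median percentile of the 31 rows was 95.9. Calr encodes calreticulin, a calcium-binding lectin chaperone that holds glycoproteins while they fold. All 3 of its rows passed, at an absolute t of 6.33, 6.70 and 7.19 and percentiles of 99.1, 99.3 and 99.6 (limma adjusted p = 0.0157, 0.0135 and 0.0122). Canx, its membrane-bound relative calnexin, passed in 2 of 3 rows (t of 6.08 and 5.86, adjusted p = 0.0175 and 0.0187), and its other row lay at percentile 70.9. The lectin pair was thus among the strongest rows of the array, with 5 of 6 rows above percentile 98.

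The Hsp70 and Hsp90 proteins of the ER lumen followed the same pattern. Hspa5 encodes BiP, the main Hsp70 of the ER, which also keeps the sensors silent. It passed in 2 of 3 rows at an absolute t of 6.19 and 6.34 (limma adjusted p = 0.0165 and 0.0157), and its other row lay at percentile 76.9. Hsp90b1, which encodes the Hsp90 paralog Grp94, passed in both rows at 6.93 and 5.15 (adjusted p = 0.0126 and 0.027). Among the co-chaperones of BiP, Dnajb11 passed in its single row (t of 4.74, adjusted p = 0.0347) and Dnajc3 in 3 of 5 (4.33 to 4.47, adjusted p from 0.0406 to 0.0453). Dnajb9, a further J-domain co-chaperone, lay at percentile 3.49. The 3 rows of Hyou1, a large Hsp70 relative that serves BiP as nucleotide exchange factor, lay at 47.9, 86 and 91.1, with none past.

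Disulfide isomerases, which form and reshuffle disulfide bonds, passed in 3 of 4 genes. Pdia6 had the largest absolute t of all 131 rows, 7.65 (limma adjusted p = 0.0109), while its other row lay at percentile 49.1. Pdia3, the partner of calreticulin and calnexin, passed at 5.38 (adjusted p = 0.0236) and Pdia4 at 4.96 (0.0302), each in 1 of 2 rows. P4hb, the founding isomerase of the family, had 1 row at percentile 83.4 (adjusted p = 0.194). The soluble ER proteins Creld2 and Manf, both known as products of stressed cells, passed in their single rows at 5.30 and 5.41 (adjusted p = 0.0246 and 0.0234), and Sdf2l1, a partner of BiP complexes, lay at 90.8 (adjusted p = 0.0922).

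**Figure D2:**
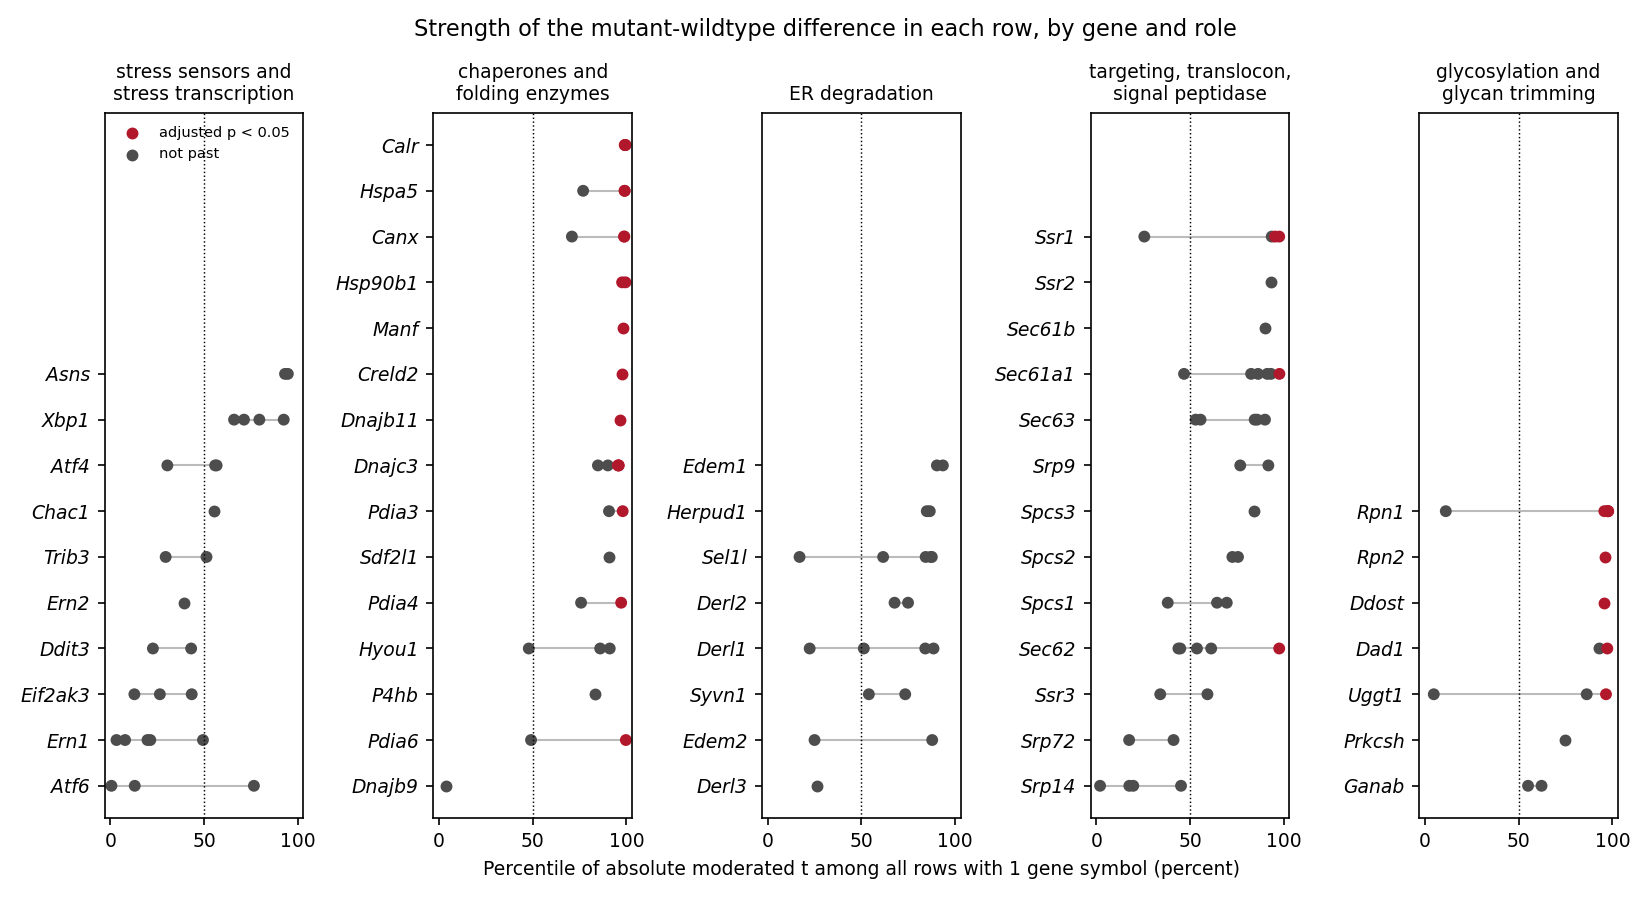
Each point is 1 row of the deposited table, placed by the percentile of its absolute moderated t among all rows with 1 gene symbol, with 1 line per gene and 1 panel per role. Red points passed a limma adjusted p of 0.05, and the dotted line marks percentile 50. The red points gather in the chaperone panel (18 of 31 rows) and the glycosylation panel (9 of 16 rows), while rows of Ern1 lie between 3.25 and 49.4.

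Chaperone genes of the ER are known to share a promoter element, the ER stress response element (ERSE), at which Atf6 acts together with the CCAAT-binding factor NF-Y. RefSeq promoter windows of GRCm38.p6, from 250 bases before to 50 after the start of a gene, were searched on both strands for its letters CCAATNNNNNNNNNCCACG. The exact element was present in 37 of 27025 genes with a window (0.137%) and in 9 of the 46 members with one (19.6%). Its 9 member genes are listed with the site on the strand where CCAAT comes first, with both ends of the element in capitals.
Calr: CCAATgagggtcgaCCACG
Canx: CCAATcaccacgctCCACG
Creld2: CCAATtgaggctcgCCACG
Derl3: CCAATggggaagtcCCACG
Dnajc3: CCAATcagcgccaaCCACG
Hsp90b1: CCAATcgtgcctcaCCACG
Hsp90b1: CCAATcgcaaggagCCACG
Hspa5: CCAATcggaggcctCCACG
Pdia6: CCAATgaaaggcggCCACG
Syvn1: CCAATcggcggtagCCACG

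All 7 chaperone genes with an exact ERSE had a row past the threshold, and 3 of the 6 chaperone genes with a window but no exact ERSE did. The ER degradation genes Syvn1 and Derl3 carried the element and had no row past. Rows of the 9 members with it lay at a median percentile of 96.8, and rows of the 37 members without it at 71.3. Of these 9, 7 are chaperone genes, a role with a median of 95.9 over all its rows. This contrast is therefore not separate from that between roles. It also relies on the names of the rows, whose assignment to genes is uncertain. None of the 7 glycosylation genes carried the element, and 5 of them had a row past, so calls were not limited to genes with these letters. Of the 11 other genes with an exact ERSE and a row on the array, 1 had a row past (9.09%), close to the 8.43% of all genes, and the median percentile of their rows was 53.9. That gene was Alg12, a mannosyltransferase of glycan assembly (limma adjusted p = 0.025). A match of letters is a description of the window and not evidence of binding.

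The elements ERSE-II, TGACGTGG and TGATGCAA were rarer among the members than the exact ERSE, while the CCAAT box alone was more common. ERSE-II, with the letters ATTGGNCCACG, was found in 2 of 46 members, Dnajb11 and Herpud1, and in 0.0444% of all genes. The element TGACGTGG, to which Atf6 and Xbp1 can bind, was in 0 of 46 members and 0.714% of all genes, and TGATGCAA, which fits Atf4 with C/EBP partners, in Chac1 and Herpud1 and 1.03% of all genes. The CCAAT box alone, which is part of ERSE and, read on the other strand, of ERSE-II, was in 33 of 46 members (71.7%) and 41.1% of genes. Rows of members with the box lay at a median percentile of 85.8, and rows of members without it at 52.5. This contrast was not tested.

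The windows of the 4 chaperone genes with the largest absolute t, whose ERSE sites are given above, are shown whole to place the element relative to the start of transcription. Capitals mark both ends of each exact ERSE, on either strand. The windows are at chr2:34771840-34772139 on the plus strand for Hspa5, chr10:86705395-86705694 on the minus strand for Hsp90b1, chr8:84846882-84847181 on the minus strand for Calr and chr12:17266339-17266638 on the plus strand for Pdia6. The element begins 65 bases before the start in Hspa5 and 98 in Pdia6. In Calr it begins 162 bases before the start, and in Hsp90b1, which has 2 of them, 212 and 107 bases before it.
Hspa5: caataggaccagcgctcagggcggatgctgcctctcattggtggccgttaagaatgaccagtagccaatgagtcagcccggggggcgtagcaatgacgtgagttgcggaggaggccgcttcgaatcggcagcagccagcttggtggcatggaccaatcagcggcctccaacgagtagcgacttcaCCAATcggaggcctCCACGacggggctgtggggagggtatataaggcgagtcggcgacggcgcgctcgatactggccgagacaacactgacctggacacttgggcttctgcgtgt
Hsp90b1: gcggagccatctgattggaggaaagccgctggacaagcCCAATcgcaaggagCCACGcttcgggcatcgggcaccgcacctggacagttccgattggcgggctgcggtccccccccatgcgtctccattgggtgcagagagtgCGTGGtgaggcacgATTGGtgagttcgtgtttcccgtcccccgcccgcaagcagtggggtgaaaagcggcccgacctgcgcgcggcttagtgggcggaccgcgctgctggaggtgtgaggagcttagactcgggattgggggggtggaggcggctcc
Calr: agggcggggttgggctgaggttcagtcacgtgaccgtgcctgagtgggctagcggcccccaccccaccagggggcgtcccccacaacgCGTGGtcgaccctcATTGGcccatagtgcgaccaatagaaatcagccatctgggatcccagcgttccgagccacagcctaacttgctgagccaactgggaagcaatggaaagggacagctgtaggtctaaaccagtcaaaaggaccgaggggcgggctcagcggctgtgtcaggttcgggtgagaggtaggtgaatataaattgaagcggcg
Pdia6: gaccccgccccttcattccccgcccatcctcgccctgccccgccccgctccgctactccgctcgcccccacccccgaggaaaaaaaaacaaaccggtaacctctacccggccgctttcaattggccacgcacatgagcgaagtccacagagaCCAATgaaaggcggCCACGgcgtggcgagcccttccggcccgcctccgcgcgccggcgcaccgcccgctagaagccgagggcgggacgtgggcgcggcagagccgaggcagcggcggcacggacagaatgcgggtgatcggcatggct

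Genes of N-glycosylation held 9 calls in 16 rows, 5 of them in rows of Rpn1. Of 7 genes 5 had a row past the threshold, and the median percentile of the 16 rows was 95.5. These calls rested on single arrays, with 0 left without wildtype 4, 1 without mutant 2 and 2 without mutant 3 or wildtype 3. There were 3 without wildtype 2, 4 without mutant 1 or mutant 5 and 7 without wildtype 1 or mutant 4. Oligosaccharyltransferase attaches the preformed glycan to asparagine, and Rpn1 encodes its subunit ribophorin I. Of the 6 rows of Rpn1, 5 passed, at an absolute t of 5.12, 4.41, 5.09, 5.11 and 5.23 (limma adjusted p from 0.0258 to 0.0425), while the sixth lay at percentile 11.1. The further subunits Rpn2 (4.50, adjusted p = 0.04) and Ddost (4.29, adjusted p = 0.0464) passed in their single rows, and Dad1 in 1 of 2 (4.99, adjusted p = 0.0295), with the other at percentile 93.1. Of 7 further genes of the transferase that are not members, 1 had a row past, Stt3a in 1 of 4 rows. The others, Stt3b, Ostc, Krtcap2, Ost4, Magt1 and Tusc3, lay between 14.9 and 94.6.

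The enzymes that trim the attached glycan were less uniform. Uggt1, which adds glucose back to misfolded glycoproteins and so returns them to calnexin and calreticulin, passed in 1 of 3 rows (4.70, limma adjusted p = 0.0357), and its others lay at 4.69 and 86.3. Glucosidase II removes the glucose residues. Its catalytic subunit Ganab had rows at 55 and 62.2, and its regulatory subunit Prkcsh a row at 74.9 (adjusted p = 0.324).

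Targeting and translocation genes held 4 calls in 38 rows (10.5%) and 3 of 13 measured genes, with a median percentile of 71.1. Sec61a1 encodes the channel itself. Of its 6 rows 1 passed (5.17, limma adjusted p = 0.0268), 4 lay between 82.6 and 93.2 and 1 at 46.8. Sec61b, a small channel subunit, lay at 90.1 (adjusted p = 0.101). Ssr1, the alpha subunit of the TRAP complex beside the channel, passed in 2 of 4 rows (5.11 and 4.30, adjusted p = 0.0278 and 0.0459). Its partners Ssr2 and Ssr3 did not pass, with Ssr2 at 93.1 and Ssr3 at 34.1 and 59.3. Sec62, which serves entry of proteins after their synthesis, passed in 1 of 5 rows (5.11, adjusted p = 0.0278), and the others lay between 43.8 and 61.3. Its partner Sec63 had 5 rows between 53 and 90 with none past.

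The signal recognition particle, which brings ribosomes to the ER, had no row past the threshold. Srp14 had 4 rows at 1.99 to 45.2 and Srp72 a pair at 17.5 and 41.2, all under the array median, while the rows of Srp9, the partner of Srp14, lay at 76.8 and 91.8 (limma adjusted p = 0.0815 for the latter). The signal peptidase subunits Spcs1, Spcs2 and Spcs3, which belong to the complex that cuts off signal peptides, had 6 rows between 38.1 and 84.2.

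ER degradation genes had no call in 20 rows, but 10 of these rows were at an unadjusted p under 0.05 (50%) and their median percentile was 79.5. The 2 rows of Edem1, a mannosidase-like protein that hands misfolded glycoproteins to degradation, came closest, at 90.3 and 93.5 (limma adjusted p = 0.0979 and 0.0638). Herpud1, an organiser of the ubiquitin ligase complex, had rows at 84.9 and 86.5. Sel1l, the adaptor of that ligase, had 3 of 5 rows between 84.3 and 87.6 and the others at 17 and 61.6, and the ligase Syvn1 itself lay at 54 and 73.4. The channel proteins Derl1 (22.4 to 88.5 over 4 rows), Derl2 (67.7 and 74.9) and Derl3 (26.5) and the Edem1 relative Edem2 (25 and 87.8) were spread widely. At this threshold and number of arrays no difference was detected for these genes, which does not show that they did not differ.

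Stress sensors and their transcription factors were the role closest to the array as a whole. None of 26 rows passed, 4 were at an unadjusted p under 0.05 (15.4%, where 21.1% of all rows were), and the median percentile was 43.2. The median log2 level of these rows, 6.14, was also close to that of all rows, 6.20. The sensor Ern1 had 5 rows at 3.25 to 49.4, Eif2ak3 had 3 at 12.8 to 43.4, Ern2 1 at 39.1, and Atf6 lay at 0.552, 13 and 76.6. The effector Atf4, a transcription factor whose translation rises downstream of Perk, had rows at 30.4, 55.9 and 56.7, and its target Ddit3, which encodes Chop, rows at 22.7 and 43.1. Of the further targets of Atf4 and Chop, Trib3 had rows at 29.5 and 51.3 and Chac1 a row at 55.3.

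The exceptions among these rows were Xbp1 and Asns. Xbp1, whose mRNA is spliced by Ire1 to make the active factor, lay at 66, 71.3, 79.5 and 92.5 over 4 rows (limma adjusted p = 0.0745 for the strongest). Asns, which makes asparagine and is an Atf4 target, lay at 93.2 and 94.7. Its limma adjusted p of 0.0662 and 0.0505 ended just outside the threshold, next to Ddost at 0.0464 just inside. Probe sets of an expression array report transcript amounts, so splicing of Xbp1, phosphorylation of Perk and cleavage of Atf6 were not measured.

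To show the single arrays without sign or level, each array was placed between the group means of a row, with the wildtype mean at 0 and the mutant mean at 1. In the strongest row, that of Pdia6, mutants 1 to 5 stood at 0.69, 1.12, 0.94, 1.13 and 1.13 and wildtypes 1 to 4 at 0.04, 0.10, -0.33 and 0.19. Mutant 1 was the nearest to the wildtypes there and the groups were separated by 0.49 of the difference of their means. In row 3 of Calr, mutant 1 stood at 0.53 and the other mutants at 1.05 to 1.15, with wildtypes at -0.23 to 0.17. The 2 rows of Hspa5 past the threshold had the same separation of 0.59. In the first of them mutants stood at 1.39, 1.02, 0.79, 0.85 and 0.94 and wildtypes at 0.10, 0.20, -0.39 and 0.09. In the second the order of the mutants was another, with mutant 4 highest at 1.42 and mutant 1 lowest at 0.79.

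The arrays of the other strong rows varied as much. In row 1 of Hsp90b1 mutants stood between 0.83 and 1.20, and wildtypes at 0.39, -0.38, 0.08 and -0.09. In Sec61a1, the row with the widest separation (0.62), mutants stood at 0.79 to 1.21 and wildtypes at -0.22 to 0.18. In row 1 of Rpn1 mutants stood at 1.02, 0.94, 0.61, 1.20 and 1.23 and wildtypes at 0.17, 0.45, -0.26 and -0.36. Groups did not overlap in 30 of the 31 member rows past the threshold (96.8%), as in 96.2% of all rows past, and the median separation was 0.33 and 0.31. The exception was row 5 of Dnajc3, where mutant 5 at 0.56 and wildtype 2 at 0.57 crossed. In Dnajb11, mutant 1 and wildtype 2 met at 0.55.

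**Figure D3:**
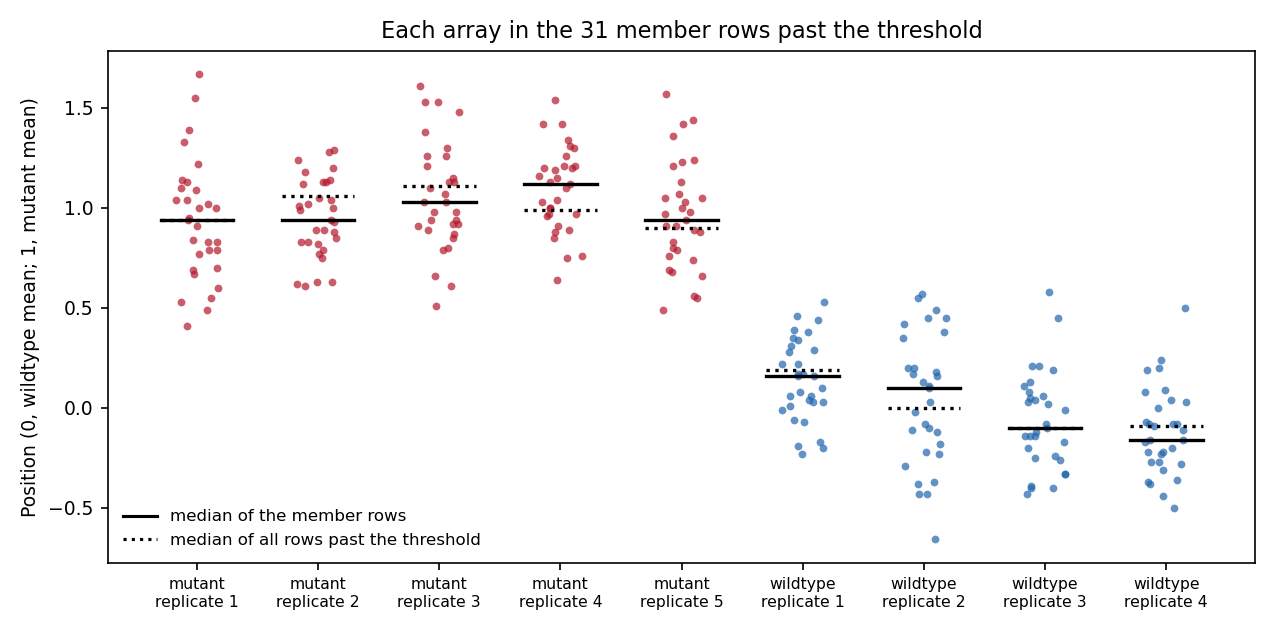
Each point is 1 of the 31 member rows past the threshold in 1 array, placed on a scale where 0 is the wildtype mean and 1 the mutant mean of that row. Solid lines are medians of these rows and dotted lines medians of all 1815 rows past. Median positions of the mutants lie between 0.94 and 1.12 and those of the wildtypes between -0.16 and 0.16.

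These positions are part of what made the rows pass, so each array was also left out of the fit and placed between the means of the remaining arrays, in the rows that passed without it. The members were chosen with earlier results of these data known, so in member rows the left-out array was not new to that choice. Rows of 1 array, some of them of the same gene, are not independent placements. In the member rows, the left-out arrays fell on the side of their own group in 130 of 159 placements (81.8%), and over all rows in 73.6%. These pooled shares count rows and weight each array by the rows that passed without it. Wildtype 1 gave 26 of the 159 placements in member rows and 2274 of the 9641 over all rows. The 2 pooled shares are therefore not comparable, and the shares of each array follow. Wildtype 1, the array numbered 5 and so the wildtype among the mutant numbers, stood at a median of 0.24 over 26 member rows and on the wildtype side in 22 of them (84.6%). Over all 2274 rows that passed without it, its median was 0.47 and its share on the wildtype side 54%. Mutants 4 and 5, numbered 6 and 7, stood at 1.05 (29 rows) and 0.78 (24 rows) in the member rows, and at 0.76 and 0.75 over all rows. For other arrays the share on the own side was lower in member rows than over all rows, with 68.4% and 76.1% for wildtype 2, 77.8% and 93.3% for wildtype 3, 80% and 93.8% for wildtype 4, 73.7% and 78.6% for mutant 1 and 92.3% and 94.3% for mutant 3. For mutant 2 it was 93.3% and 92.9%.

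The median rank of the members moved little with single arrays. Over the 9 fits with an array left out, the median percentile of the member rows ranged from 76.4 to 81.3. Row 1 of Pdia6, rows 2 and 3 of Calr and row 1 of Hsp90b1 passed in all 9, and rows 1 and 2 of Hspa5 and row 1 of Calr in 8 each. Row 2 of Rpn1 passed in none of the 9, and the rows of Ddost, row 4 of Dnajc3 and row 4 of Ssr1 in 1 each.

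With the array number as a covariate, 0 member rows passed, as 27 of 34945 rows did (0.0773%). The smallest adjusted p of a member row was then 0.082, in Pdia6, and 46 member rows (35.1%) were at an unadjusted p under 0.05, where 14.3% of all rows were. The median percentile of the member rows fell to 66.9, and that of the 31 rows past in the fit without the covariate was 95.5. Those 31 rows were picked for a large absolute t on the same arrays. Their high rank is favoured by that choice and does not show that the differences persist. Array number and group are partly tied, with means of 4.2 in mutants and 8 in wildtypes, so their parts in these differences cannot be told apart. With array weights, all 31 rows passed and 41 member rows in all.

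**Figure D4:**
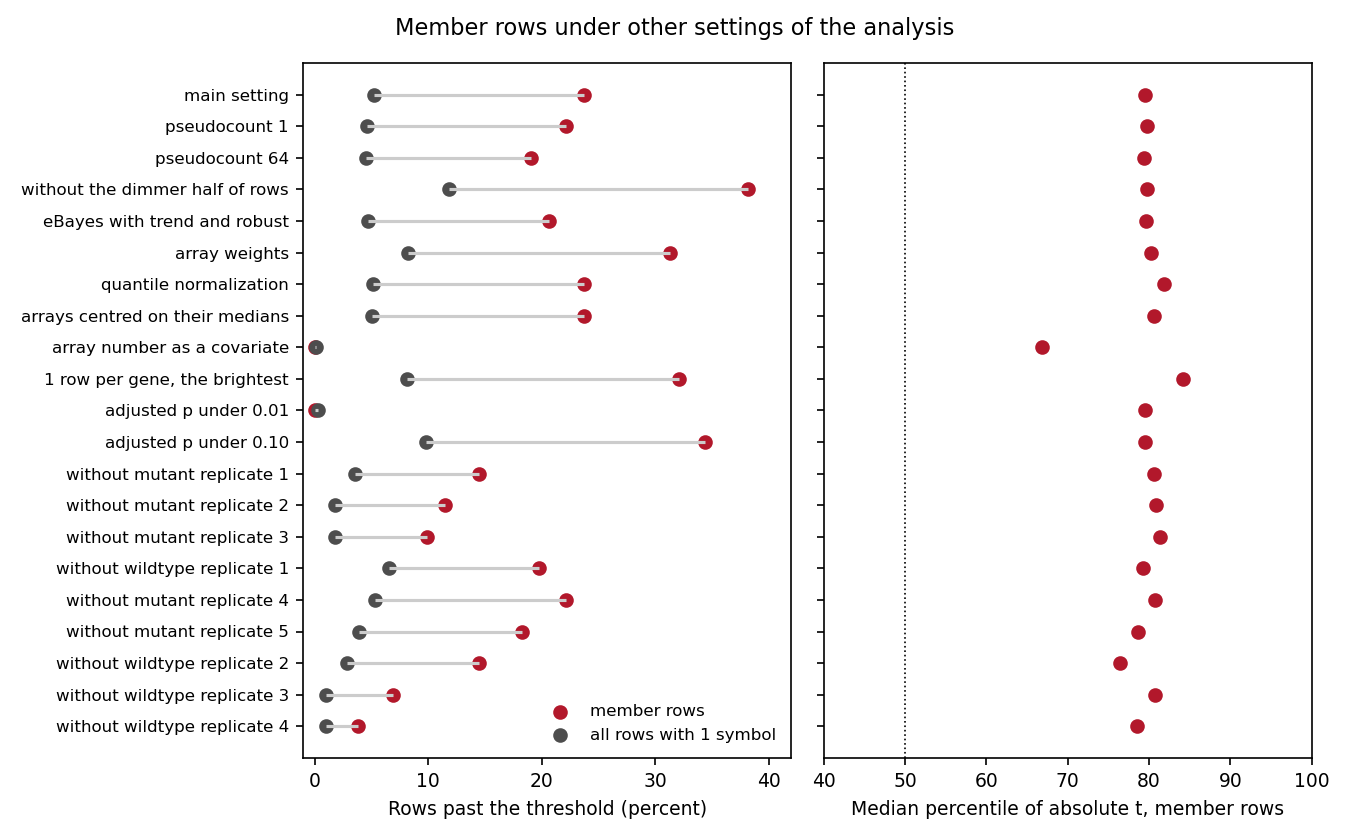
The left panel gives, for the main setting and 20 alternatives, the share of member rows (red) and of all rows with 1 symbol (grey) past the threshold in percent, and the right panel the median percentile of absolute t of the member rows, with 50, the array median, dotted. Member rows lie above all rows in every setting but 2, array number as a covariate and an adjusted p under 0.01, where 0 of them passed, and their median percentile lies between 66.9 and 84.2.

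Rows of the same gene varied in strength. In the 38 members with at least 2 rows, the first pair differed by a median of 7.29 percentiles, and in all 9010 such genes by 23.2. The median range over all rows of a gene was 25.7 percentiles in these members and 35.2 in all such genes. Genes with at least 2 rows past were 7 of the 38 members (18.4%) and 2.52% of all genes. The widest ranges were those of Uggt1 (4.69 to 96.6) and Rpn1 (11.1 to 97.8).

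A further 62 genes of the ER and the early secretory pathway that are not members had 12 of 120 rows past (10%, with 5.19% over all rows) and a median percentile of 69.5. The difference from the members was not tested. The 12 fell to 5 without mutant 2 or wildtype 3 and to 6 without mutant 3 or wildtype 4, and without wildtype 4 the members had 5 of 131. At an adjusted p under 0.01, 3 of these rows and 0 member rows passed. The 5 strongest were Sec23b, of the coat of vesicles that leave the ER (absolute t of 9.53, limma adjusted p = 0.00559), Atf6b, the relative of Atf6 (9.37, 0.00615), the cargo receptor Lman1 (8.03, 0.00924), the disulfide isomerase Pdia5 (7.20, 0.0122) and Mogs, the glucosidase that acts first on the attached glycan (6.12, 0.017). Each of these 5 rows passed in at least 8 of the 9 fits without an array. Other rows of Lman1 lay between 47.6 and 93.5, with none past. Ero1a, the oxidase that recharges disulfide isomerases, and Sec11c, a catalytic subunit of signal peptidase, passed in 2 rows each, and Txndc5, Stt3a and Mbtps2 in 1. Further rows that did not pass lay at 85.3 for Ero1a and 74.7 for Txndc5.

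Markers of cell types of the colon and pancreas were set beside these calls, where 8.43% of all genes had a row past and 21.1% of all rows were at an unadjusted p under 0.05. Of 8 measured plasma cell genes 0 had a row past in limma (0 of 14 rows at an unadjusted p under 0.05, smallest adjusted p 0.269), with a median percentile of 40.9. Of 7 genes of exocrine pancreas 0 had one (1 of 13 rows at an unadjusted p under 0.05, median percentile 34.7). Of 9 goblet cell genes 2 did, Spink4 (7.46, limma adjusted p = 0.0113) and Agr2, itself a disulfide isomerase of the ER (6.56, 0.0145). The other row of Agr2 lay at 84.8 and did not pass. The median of the 16 goblet cell rows was 56.3, with 4 at an unadjusted p under 0.05. Of 9 genes of absorptive colonocytes 2 had a row past, Aqp8 and Slc26a3, with a median over 21 rows of 74.2 (9 of 21 rows at an unadjusted p under 0.05, 42.9%). Of 6 smooth muscle genes 0 did (5 of 10 rows at an unadjusted p under 0.05, median 75). Of 6 fibroblast genes 1 did, Lum (limma adjusted p = 0.0269), with 1 of 13 rows at an unadjusted p under 0.05 and a median of 60. Summed levels of these lists are not given because names do not carry level here, and their part in the ER calls was not tested.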

How the data were processed

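The authors deposited linear intensity values per probe set. Per the submitters' processing notes, these came from Affymetrix Expression Console 1.1, and how probes were summarised and background was corrected is not given in the sources used here. Array medians lay between 53.8 and 54.7, so no normalization was added. Precision is limited by the 9 arrays. Of 45101 rows, 64 controls were left out. Gene names came from the platform annotation, which gave 1 symbol to 34945 of the 45037 rows tested, several to 932 and none to 9160.

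Values were tested as log2(intensity + 16) in R 4.3.3, by the moderated two-sided test of limma 3.58.1 (residual degrees of freedom 7, prior 2.26). Benjamini-Hochberg adjustment covered the 45037 rows, with a threshold of 0.05. The fit was tested on simulated data, in which 95% of rows shifted by 1 on the log2 scale passed. That shift was larger than the median absolute log2 difference of member rows (0.161) and of all rows (0.064). The pass rate therefore does not show how often differences of the size seen here would pass. No list was tested as a set, and roles are described by counts and medians. Members and lists were chosen with earlier results of these data known. All members are named, and of other pathway genes the 5 strongest rows and others past the threshold. Promoter windows were taken from RefSeq (GRCm38.p6), which had one for 46 of the 54 members. Alternatives were other pseudocounts, normalizations, filters, variance models, thresholds, array weights, array number as a covariate, 1 row per gene and leaving out each array.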

Additional observations from a re-analysis of the deposited data

Results flagged for a closer look

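In the 31 member rows past the threshold, the arrays of each group were searched for a single array far from the others, which gave 62 groups. In 2 of them the gap to the nearest array, divided by the range of the group, was above Dixon's 95% critical value, where chance flags about 1 in 20. In row 3 of Calr mutant replicate 1 lay apart from the other mutants, toward the wildtypes, with a ratio of 0.831. In row 1 of Canx wildtype replicate 1 lay apart from the other wildtypes, toward the mutants, with a ratio of 0.863.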

How the results depend on the processing

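No paired analysis was possible because the labels give no replicate numbers, and the numbers used here only name arrays. The counts of member rows (31), member genes (19) and all rows (1815) past the threshold stayed within 1.5 times under both other pseudocounts, trend and robust moderation, quantile normalization, centring and without dim rows, those under the median level. With array weights 2872 rows passed in all, 8 of targeting and translocation, 3 of stress sensors, 1 of ER degradation and 21 of other pathway genes. With array number as a covariate 27 rows passed, with 0 of members, of chaperones, of targeting and translocation, of glycosylation and of other pathway genes, and the median percentile of members was 66.9. With 1 row per gene 17 member rows passed, 11 of chaperones, 4 of glycosylation, 1 of targeting and translocation and 1 of stress sensors, with a median percentile of 84.2. Quantile normalization gave a median of 81.8. Stress sensors, at 0 in the setting reported, also had 1 row past with pseudocount 1, with trend and robust, and with quantile normalization, and 2 without dim rows. ER degradation, at 0 as reported, also had 1 with pseudocount 1 and 1 without dim rows. At an adjusted p under 0.01, 93 rows passed, with 0 of members, chaperones, targeting and glycosylation and 3 of other pathway genes. At 0.10, 3442 rows passed, with 3 of stress sensors, 2 of ER degradation, 9 of targeting and translocation and 24 of other pathway genes. Apart from the other thresholds, the cause of these shifts was not tested.

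Leaving out 1 array at a time, the counts ranged from 345 to 2274 for all rows, 5 to 29 for member rows, 4 to 18 for member genes, 4 to 18 for chaperone rows, 0 to 7 for glycosylation, 0 to 4 for targeting and translocation, 0 to 1 for ER degradation, 0 to 1 for stress sensors and 5 to 16 for other pathway genes, and the median percentile from 76.4 to 81.3. Of the 19 member genes with a call, Calr, Hsp90b1 and Pdia6 kept it in every one of the 20 alternatives but array number and the threshold of 0.01, and Ddost kept it in the fewest, 6 of 20.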

Other observations

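A row shared by Sec61g and other symbols had an absolute t of 1.37 (limma adjusted p = 0.543), at percentile 62.4 of all rows tested, and a row shared by Sec61b with another symbol one of 1.25 (0.586). They entered no count.

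Among the genes outside the ER list with an exact ERSE, the oxidase gene Ero1b had its strongest row at percentile 92.5 (limma adjusted p = 0.0742) and Acacb, an acetyl-CoA carboxylase, at 87.2 (0.141). The other 8 with no call had their strongest rows between 15.2 and 85.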
